A study of Homo sapiens with 6 samples.

Results

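Cells of A172, an established human glioblastoma line, were transfected with a miR-324-3p.1 duplex or with a control miRNA, and the transcriptomes of the 2 groups were compared across all genes. The comparison uses 4 of the 6 libraries of the study, 2 labelled for the 3p.1 duplex and 2 for the control miRNA, chosen by that label alone. The other 2 libraries received a miR-324-5p duplex, were prepared in the same way, and are used here for the estimate of spread and to say which values differed between the duplexes. All groups were transfected with a Lipofectamine reagent and harvested 1 day later, and the labels name no genetic change in the cells. A single cell line, a single time after transfection and no untransfected library limit the control group as a baseline. Whether the replicates came from separate cultures is not given in the labels. The p-values therefore reflect the spread among these particular samples, and that spread may be technical.

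A microRNA is a short RNA that guides an Argonaute protein to messenger RNAs by pairing through its seed, the bases 2 to 8 from its 5′ end. Matches to the seed are found mostly in 3′ UTRs, and the paired transcript is deadenylated, destabilised and translated less. A microRNA hairpin has a 5p and a 3p arm, either of which can be loaded, and a shift of the 5′ end by a few bases gives the same arm another seed and another set of matching transcripts. The title of the series concerns a switch between the arms of a microRNA under the control of uridylation, the addition of uridines to RNA 3′ ends.

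The sequences of the arms show how close the candidate seeds lie to each other. They are from RefSeq (GRCh38.p14), where the MIR324 hairpin of 83 bases lies at chr17:7223297-7223379 on the minus strand. Capitals mark bases 2 to 8, and in the hairpin the same bases as in the form from base 4.
MIR324 hairpin: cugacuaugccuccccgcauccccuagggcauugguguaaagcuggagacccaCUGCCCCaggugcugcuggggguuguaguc
miR-324-5p: cGCAUCCCcuagggcauuggug
miR-324-3p: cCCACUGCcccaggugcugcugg
miR-324-3p from base 4: aCUGCCCCaggugcugcugg
The labels give no sequence for the 3p.1 duplex. Words complementary to the seed were therefore examined for the RefSeq start of the 3p arm and for starts up to 3 bases to either side of it. Transcript words pair with the seed in reverse: the word for the RefSeq start is GCAGTGG, and that for the form from base 4 is GGGGCAG.

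The values are deposited TPM (transcript abundance scaled by transcript length and to a fixed total per library), so the sequencing depth is unknown and no counting interval can be given. Each library listed 18660 to 19070 gene symbols. VIM and CD44, mesenchymal genes of this line, were high in all libraries (4788 to 5910 TPM and 708 to 929 TPM), whereas GFAP, the intermediate filament of astrocytes, was listed at 0.05 to 0.25 TPM. The neuronal marker RBFOX3 stood at 0.13 to 0.27 TPM and the endothelial marker PECAM1 at 0.14 to 0.57 TPM. Other neuronal markers were not low: the 4 tested of 13 listed had a median of 104 to 151 TPM by library. The 7 tested of 13 epithelial markers had a median of 2.66 to 4.23 TPM and summed to 934 to 1363 TPM. The leukocyte marker PTPRC stood at 5.52 to 7.48 TPM in all libraries, without a difference between groups (adjusted p = 0.89). The 2 control libraries differed in interferon-stimulated genes, whose median level was 51.6 TPM in replicate 1 and 129 TPM in replicate 2, so results that rest on those genes are given with and without each control library. The median absolute difference between replicates was 0.167 log2 units in the control, 0.153 with the 5p duplex and 0.129 with the 3p.1 duplex.

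Few genes passed the test over all genes. Those nearest to the threshold included transcripts at about 50% of control (as with TVP23B, below) that were also low against the 5p duplex. At an adjusted p of 0.117 stood lower genes (SDF2, CNOT6 and BTN3A2) and higher ones (LRIG1, STK38L and SNORA31) alike. Of 13400 genes tested, 2 passed an adjusted p under 0.05 (0.0149%), 1 lower and 1 higher with the 3p.1 duplex (0.00746% each). The median log2 fold change was -0.03, and 59.0% of genes had a negative value. Without adjustment, 919 genes (6.86%) had a p under 0.05, 753 of them lower (5.62%) and 166 higher (1.24%). The 2 libraries of each group did not overlap for 36.3% of genes, 24.1% with the 3p.1 duplex lower and 12.1% with it higher. With 2 libraries a group, an exact permutation test of a single gene cannot go below p = 0.333, so calls come from the limma model across genes.

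**Figure D1:**
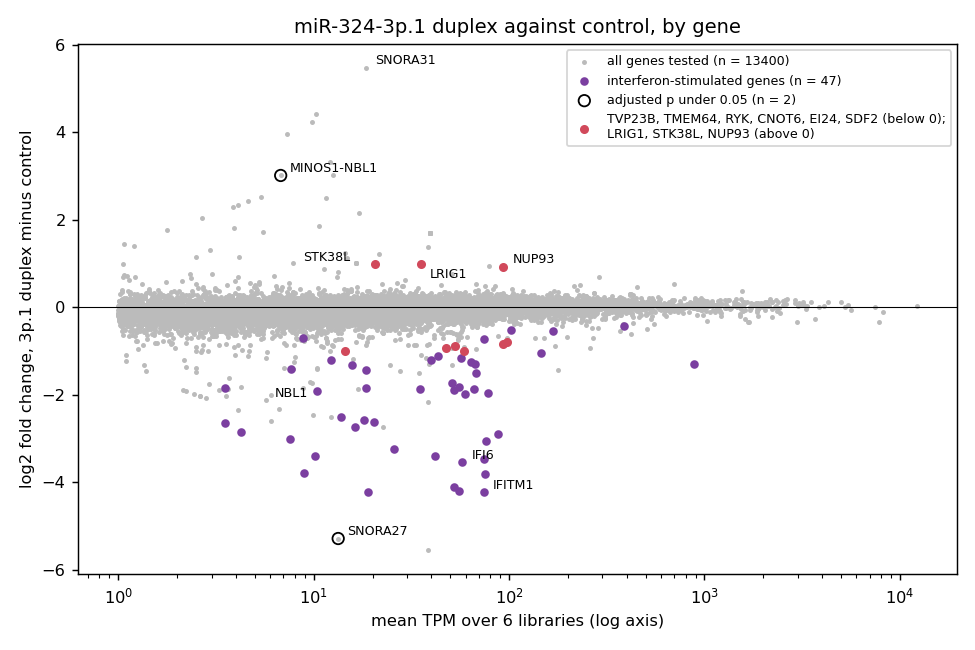
Each point is a gene, by its mean TPM over the 6 libraries (log axis) and its log2 fold change of the 3p.1 duplex against control. The 47 interferon-stimulated genes (purple) all lie below 0, the 2 genes with an adjusted p under 0.05 are circled, and most other genes lie close to 0.

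Both called genes are ones whose reads are hard to assign. SNORA27, a small nucleolar RNA that guides pseudouridylation, had 53.1 and 27.0 TPM in the controls and was listed at 0 in both 3p.1 duplex libraries (adjusted p = 0.0149). Both 5p duplex libraries list it at 0 as well. Small nucleolar RNAs lie within introns of host genes and are not polyadenylated as a rule, so their level in an oligo-dT library is a poor measure of the RNA. MINOS1-NBL1, an annotated read-through of 2 neighbouring genes at chr1:19597067-19656927 (plus strand, GRCh38), rose from 0.89 and 0.51 TPM to 10.5 and 15.1 TPM. Its log2 fold change was 3.01 ± 0.22 (SE, n = 2 against 2), with an adjusted p of 0.0345. It lost the call without control replicate 2 (adjusted p = 0.0798) and without 3p.1 duplex replicate 2 (0.0547). NBL1, which codes for a secreted antagonist of bone morphogenetic proteins and overlaps the read-through at chr1:19596979-19658456, stood in the other direction, at 13.2 and 13.7 TPM in the controls against 3.03 and 1.73 TPM (adjusted p = 0.27). The estimation of expression can divide the same reads between these overlapping models, so neither value is certain as a gene level. In the 5p duplex libraries the pair stood likewise, with MINOS1-NBL1 at 6.08 and 7.56 TPM and NBL1 at 0.42 and 2.06 TPM.

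Next to the threshold stood a group of protein-coding genes that were lower with the 3p.1 duplex than in every control and 5p duplex library. TVP23B, a membrane protein of the Golgi, was at 68.9 and 73.4 TPM in the controls, 71.9 and 69.2 TPM with the 5p duplex, and 34.8 and 35.6 TPM with the 3p.1 duplex. The 3p.1 libraries thus lay at 49.5% of the control mean, and no library of another group came near them. The log2 fold change was -0.99 ± 0.09 (SE), with an adjusted p of 0.0733 against control and 0.0227 against the 5p duplex. It was called against control without control replicate 1 (adjusted p = 0.0212) and in none of the other leave-one-out fits, where the adjusted p ranged up to 0.51. In a bulk sample, fewer cells that express a gene and less RNA per cell cannot be told apart, here and in all that follows.

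EI24, an endoplasmic reticulum membrane protein first described as a p53-induced gene and linked to autophagy, was at 107.7 and 103.8 TPM in the controls, 117.9 and 111.4 TPM with the 5p duplex and 58.3 and 59.1 TPM with the 3p.1 duplex. That is 55.5% of the control mean, and the groups did not overlap (log2 fold change -0.84 ± 0.08 SE, adjusted p = 0.0934; 0.0227 against the 5p duplex). TMEM64, a multipass transmembrane protein, was at 17.2 and 18.3 TPM in the controls, 17.6 and 17.3 TPM with the 5p duplex and 8.33 and 8.45 TPM with the 3p.1 duplex. The 3p.1 duplex level was 47.3% of control (adjusted p = 0.0934; 0.0252 against the 5p duplex). RYK, a receptor-like pseudokinase that acts as a co-receptor for Wnt ligands, was at 60.9 and 62.0 TPM in the controls and 32.2 and 31.2 TPM with the 3p.1 duplex. The 5p duplex libraries lay in between, at 51.6 and 47.1 TPM. The log2 fold change of RYK was -0.93 ± 0.09 (SE) against control, with an adjusted p of 0.0934 (0.0717 against the 5p duplex). TMEM64 and RYK passed the test against control without control replicate 1 (adjusted p of 0.0443 and 0.0445), and EI24 did not (0.0509). Without another library none of the 3 passed, and the adjusted p ranged up to 0.591, 0.583 and 0.591 for TMEM64, RYK and EI24.

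SDF2, a soluble protein of the endoplasmic reticulum lumen, was at 113.2 and 110.9 TPM in the controls, 115.0 and 114.8 TPM with the 5p duplex and 60.5 and 68.6 TPM with the 3p.1 duplex (adjusted p = 0.117; 0.0325 against the 5p duplex). CNOT6, a catalytic subunit of the CCR4-NOT complex that shortens poly(A) tails, was at 58.5 and 65.4 TPM in the controls, 66.3 and 59.2 TPM with the 5p duplex and 32.6 and 33.7 TPM with the 3p.1 duplex. Its log2 fold change was -0.88 ± 0.10 (SE), with an adjusted p of 0.117 against control (0.0481 without control replicate 1 and up to 0.769 without another library) and 0.033 against the 5p duplex. In both genes the 3p.1 libraries lay below all 4 others. CCNK, the cyclin partner of CDK12 and CDK13, was at 40.4 and 35.4 TPM in the controls and 21.4 and 19.0 TPM with the 3p.1 duplex (adjusted p = 0.134).

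TOMM40, the channel of the translocase that imports proteins through the outer mitochondrial membrane, was at 62.0 and 61.2 TPM in the controls, 54.3 and 66.4 TPM with the 5p duplex and 29.6 and 34.0 TPM with the 3p.1 duplex (adjusted p = 0.164). TOMM20, a receptor of the same complex, was at 206.5 and 211.2 TPM in the controls, 276.7 and 231.1 TPM with the 5p duplex and 131.9 and 128.3 TPM with the 3p.1 duplex. TOMM20 was at 62.3% of control, with an adjusted p of 0.212 against control and 0.0325 against the 5p duplex. The phosphatase PPP5C, the membrane fusion protein STX3 and the RNA-binding protein CPEB1 stood at 54.1%, 53.5% and 53.7% of control, with adjusted p-values of 0.208, 0.208 and 0.212. TVP23B, EI24, TMEM64, RYK, SDF2, CNOT6, CCNK, TOMM40, TOMM20, PPP5C, STX3 and CPEB1 were singled out after their values were seen.

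**Figure D2:**
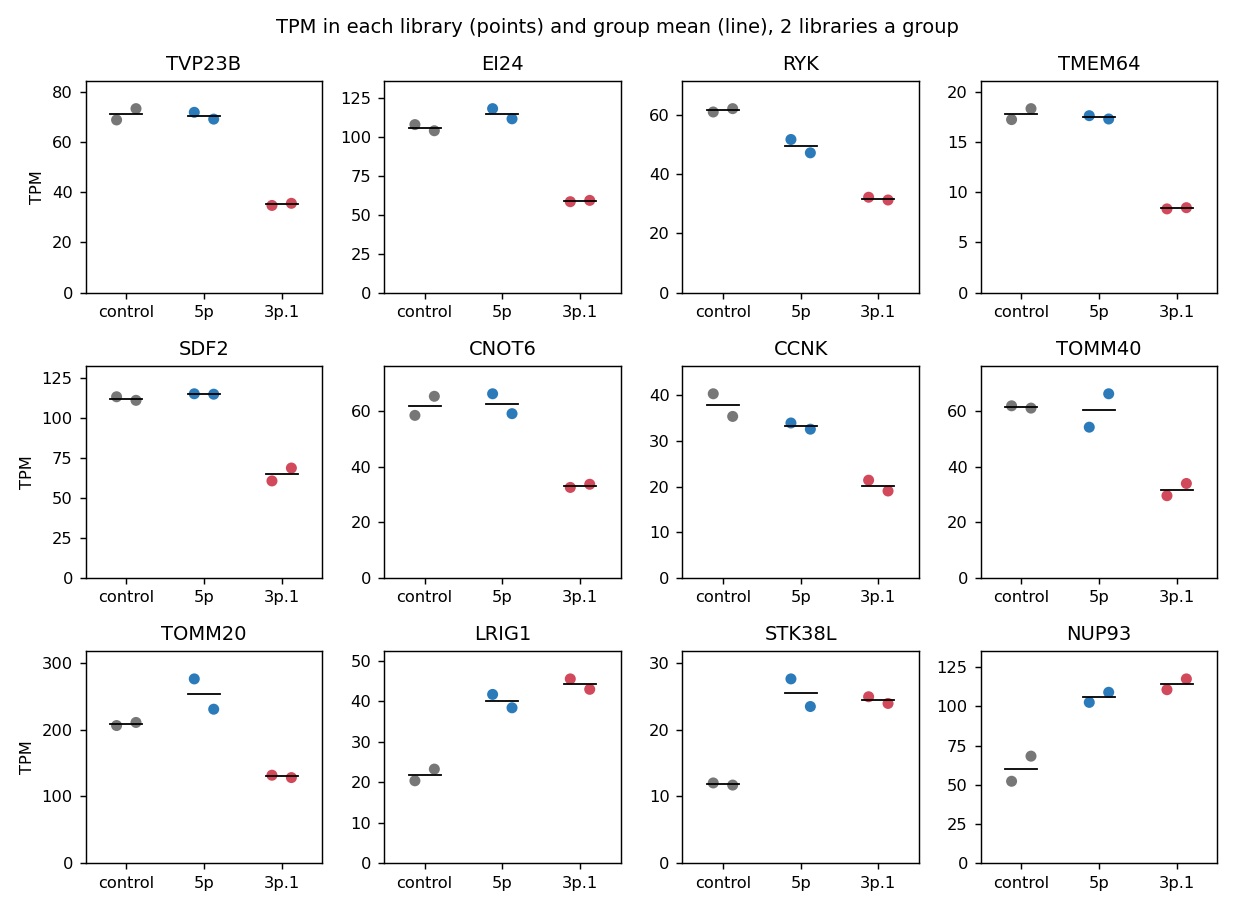
TPM of 12 genes in each of the 6 libraries (points) with the mean of each group of 2 (line); each panel has its own axis from 0. TVP23B, EI24, RYK, TMEM64, SDF2, CNOT6, CCNK, TOMM40 and TOMM20 are lowest in the 3p.1 duplex libraries, and LRIG1, STK38L and NUP93 are higher with both duplexes than in the controls.

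Many of these transcripts hold the word GGGGCAG, the complement of the seed of the form from base 4. RYK, CNOT6, CCNK, TOMM40 and PPP5C were also named by the rule that takes genes with this word, so the share of holders among the named genes is no measure of the word. Sites of genes named above that hold this word are shown with 14 bases before and 2 after, as DNA on the transcript strand (GENCODE 29 transcripts, GRCh38). They are where the named genes and the candidate seed meet. The genes shown were taken as holders of the word and are not those that fell most. TVP23B and TMEM64, and BTN3A2 and ZBTB47 (below), fell more. Capitals mark the match, of 8 bases where the word is followed by an A (an 8mer) and of 7 bases otherwise (a 7mer-m8).
EI24, chr11:125584616-125584623, plus strand: gagactaaatgtggGGGGCAGAtg
RYK, chr3:134157404-134157411, minus strand: accagatgtggtttGGGGCAGAtc
SDF2, chr17:28648747-28648754, minus strand: gacttgctggtaaaGGGGCAGAtg
CCNK, chr14:99511238-99511245, plus strand: catgacacccagaaGGGGCAGAag
TOMM20, chr1:235110299-235110306, minus strand: gggaaagggagcaaGGGGCAGAta
TOMM40, chr19:44903449-44903456, plus strand: gattctgagcaccaGGGGCAGAgg
PPP5C, chr19:46390413-46390420, plus strand: caggccctgggctaGGGGCAGAgc
CNOT6, chr5:180576494-180576500, plus strand: atatatttgaatttGGGGCAGca
All lie in the longest annotated 3′ UTR of the gene. TOMM20 and TOMM40 each hold 2 further 7mer-m8 matches and PPP5C a second 8mer, and STX3 and CPEB1 hold an 8mer too. TMEM64 holds the shorter match of 6 bases followed by an A (a 7mer-A1). TVP23B holds no match to this word in its 3′ UTR of 1147 bases, which says only that the letters are not in this window, and it holds a 7mer-A1 of the word of the RefSeq start. Of 11995 genes tested with an annotated 3′ UTR, 19.6% hold an 8mer or 7mer-m8 of this word. A match is a description of the letters, not of a functional site.

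Over all genes with an annotated 3′ UTR, those that hold an 8mer of this word had lower values than those without any match. The 667 genes with an 8mer had a median log2 fold change of -0.08, and 70.8% of them were negative. The 6865 genes with no match had a median of -0.02, with 54.8% negative. The medians of the 7mer-m8, 7mer-A1 and 6mer classes differed from that of genes without a match by -0.032, -0.018 and -0.013, against -0.064 for the 8mer. At unadjusted p under 0.05, 80 of the 667 8mer genes were lower, against 4.54% of genes without a match and 5.62% of all genes. By the number of copies of the word, the median was -0.022 for none, -0.047 for 1, -0.077 for 2 and -0.100 for 3 or more. Against the 5p duplex these medians were 0.001, -0.000, -0.002 and -0.018. The 7mer-m8, 7mer-A1 and 6mer differences were 0.002, -0.012 and -0.003 there, so the order of the classes against control did not hold. The 3′ UTRs also grew longer with the number of copies, with medians of 1184, 2099, 2862 and 3821 bases. Their median GC content rose likewise, at 40.6%, 48.9%, 53.2% and 55.1%.

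**Figure D3:**
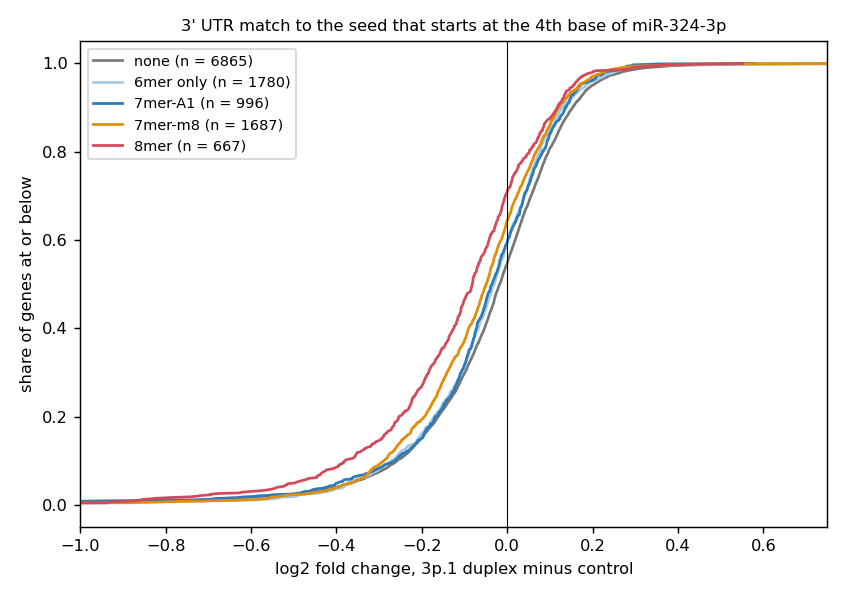
Cumulative share of genes (vertical axis) at or below each log2 fold change of the 3p.1 duplex against control (horizontal axis, shown from -1 to 0.75), by the best 3′ UTR match to the seed of the form from base 4. The curve of the 667 genes with an 8mer lies to the left of that of the 6865 genes without a match, and the 7mer-m8 curve lies between them.

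The word of the RefSeq start showed a smaller difference. Its 8mer genes (539) differed from genes without it by -0.010, and the 8mers of the other starts within 3 bases by 0.000 to -0.022. The 8mer of the miR-324-5p word differed by -0.025 in this comparison. These values turn with the control library: without control replicate 1 and without control replicate 2 the RefSeq start gave -0.043 and 0.037, the starts 1 and 2 bases after it -0.056 and 0.028, and -0.065 and 0.012, the starts before it -0.034 to -0.037 and 0.015 to 0.053, and the 5p word -0.063 and 0.008. GGGGCAG gave -0.084 and -0.051. Among 16221 words of 7 letters held by at least 50 3′ UTRs, 96 had a lower median difference than GGGGCAG, and those words were held by a median of 126 UTRs. Among the 9159 words held by at least 1000 UTRs, a minimum chosen after the data were seen, 1 word was lower, AGGGGCA, which overlaps it.

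Single libraries show how firm this shift is. Relative to the control mean, the 8mer genes differed from genes without a match by -0.089 and -0.056 in the 3p.1 duplex libraries, against -0.015 and 0.015 in the controls and -0.071 and 0.013 in the 5p duplex libraries. The 3p.1 duplex libraries were thus below both controls, while 1 of the 5p duplex libraries lay between them. 5p duplex replicate 1, at -0.071, was below both controls too, and below 3p.1 duplex replicate 2. The 7mer-m8 genes differed by -0.050 and -0.020 in the 3p.1 duplex libraries and by -0.087 and -0.003 in the 5p duplex libraries. The libraries of the 2 duplexes thus overlapped in both classes or in their order, and the shift did not set them apart library by library. Against the 5p duplex the 8mer difference was -0.032. The 3′ UTRs of the 8mer genes were longer and richer in G and C than those of genes without a match (medians of 2805 and 904 bases, and 49.96% and 38.9% GC). In 3 classes of equal size by 3′ UTR GC content, from low to high, the 8mer difference was -0.085, -0.059 and -0.047 against control, and -0.088, -0.049 and -0.028 against the 5p duplex. The reverse complement of the word, which the seed does not pair with, had an 8mer median of -0.053 against -0.022 without it (1083 and 7485 genes). Its 7mer-m8 median was -0.047 (1658 genes), beside -0.050 for the 7mer-m8 of the word (1687 genes). Genes with the 8mer of the reverse complement had long and GC-rich 3′ UTRs as well (2442 bases and 51.9% GC). The part of 3′ UTR length in these differences was not tested.

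The word was also more frequent among the genes with the smallest p-values. Of 148 genes that were lower at unadjusted p under 0.01, had a 3′ UTR and were outside the 4 lists of interferon and antigen presentation genes described below, 56 (37.8%) held an 8mer or 7mer-m8, against 19.6% of all genes with a 3′ UTR. With those lists kept in, 57 of 200 genes (28.5%) held one, and 28.3% of the genes lower at unadjusted p under 0.05. Among the 20 genes with a 3′ UTR that were higher at unadjusted p under 0.01, 3 held one. At unadjusted p under 0.05, 19 of the 134 higher genes with a 3′ UTR did (14.2%). The set of 148 genes was formed after the values were seen. Of the 46 genes with a 3′ UTR that were called higher than with the 5p duplex (below), 18 held an 8mer or 7mer-m8 of the word (39.1%). A share of this size was thus not particular to genes that were lower with the 3p.1 duplex. By the rule for naming genes with a match to this word, the 12 that stood lowest also included genes of the interferon response, namely TRANK1, SAMHD1, HELZ2, SLFN5, STAT2 and MYD88. SAMHD1, a dNTP hydrolase that restricts viruses, was at 63.8 and 197.8 TPM in the controls, 28.3 and 31.9 TPM with the 3p.1 duplex, and 35.9 and 31.7 TPM with the 5p duplex. ZBTB47, a zinc finger protein with an 8mer and 3 further 7mer-m8 matches, was at 11.5 and 12.1 TPM in the controls, 4.35 and 5.40 TPM with the 3p.1 duplex and 6.46 and 8.23 TPM with the 5p duplex (adjusted p = 0.188).

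The contrast of the 2 duplexes takes in differences made by either duplex. Its fold changes leave out the control libraries' values, but its spread and p-values come from all 6 libraries. It called 58 of 13400 genes (0.433%), 11 lower with the 3p.1 duplex (0.0821%) and 47 higher (0.351%). The 11 lower genes were TVP23B, EI24, TMEM64, SDF2, CNOT6, TOMM20, FRMD5, CLDN4, SNORA29, RNU4-1 and DEFB109P1. FRMD5, a FERM-domain adaptor, was at 11.95 and 13.3 TPM in the controls, 16.75 and 13.96 TPM with the 5p duplex and 7.17 and 6.77 TPM with the 3p.1 duplex (adjusted p = 0.0441 between the duplexes). CLDN4, a claudin of tight junctions, was at 11.1 and 10.9 TPM with the 3p.1 duplex, close to the controls (12.4 and 13.98 TPM) and below the 5p duplex (21.8 and 27.4 TPM). SNORA29 and RNU4-1, both small RNAs, were listed at 0 in the controls and the 3p.1 duplex libraries alike. These calls rest on few libraries: with 1 library left out, 7 to 26 genes were called, of which 4 to 17 were among the 58. TVP23B and EI24 kept the call only without control replicate 1 or control replicate 2 (adjusted p from 0.0436 to 0.0437), and TOMM20 only without 5p duplex replicate 2 (0.0483). TMEM64, CNOT6, SDF2, FRMD5 and CLDN4 lost it whichever library was left out, with adjusted p-values of at least 0.0664.

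Of the 47 genes higher than with the 5p duplex, 43 were within 0.25 log2 units of control with the 3p.1 duplex. The others were TMEM141, C6orf62 and ASF1B, with log2 fold changes of -0.26, -0.39 and -0.29 against control, and the small nucleolar RNA SNORA31, which was listed at 0 in the controls; none of the 4 was called against control. VDAC1, a channel for metabolites in the mitochondrial outer membrane, was at 596.8 and 561.3 TPM in the controls, 604.4 and 558.9 TPM with the 3p.1 duplex and 159.3 and 149.2 TPM with the 5p duplex. The 3p.1 libraries overlapped the controls, and the difference between duplexes was 1.91 ± 0.09 log2 units (SE, adjusted p = 0.00256). HSPD1, the mitochondrial chaperonin, was at 1112 and 1204 TPM with the 3p.1 duplex against 976.5 and 1105 TPM in the controls. The lipid phosphatase PLPP1 was at 30.5 and 29.2 TPM against 36.7 and 32.7 TPM in the controls, and the actin regulator WASF2 at 51.8 and 52.7 TPM against 49.3 and 54.9 TPM. WASF2 holds 7mer-m8 matches of GGGGCAG and yet overlapped the controls. Among the 46 of these 47 genes with a 3′ UTR, 69.6% held a word of the miR-324-5p seed of at least 7 bases, against 14.6% of all genes.

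A further group stood higher with the 3p.1 duplex than in control and at like levels with the 5p duplex; none passed the test against control. LRIG1, a feedback inhibitor of ErbB receptors, was at 20.3 and 23.2 TPM in the controls, 45.5 and 43.0 TPM with the 3p.1 duplex and 41.7 and 38.4 TPM with the 5p duplex. The log2 fold change was 0.99 ± 0.11 (SE, adjusted p = 0.117), and the difference between duplexes was 0.14 ± 0.11. STK38L, the NDR2 kinase of the Hippo family, was at 12.02 and 11.7 TPM in the controls, 24.98 and 23.97 TPM with the 3p.1 duplex and 27.7 and 23.5 TPM with the 5p duplex (adjusted p = 0.117). NUP93, a scaffold protein of the nuclear pore, was at 52.2 and 68.2 TPM in the controls, 110.7 and 117.6 TPM with the 3p.1 duplex and 102.6 and 109.1 TPM with the 5p duplex (adjusted p = 0.208). NAA20, the catalytic subunit of an amino-terminal acetyltransferase, and SEC62, of the translocation machinery of the endoplasmic reticulum, stood at 140.6% and 146.0% of control. In each of these genes all 4 duplex libraries lay above both controls. CD276, the immune checkpoint ligand B7-H3, was the reverse case, at 185.9 and 178.6 TPM in the controls, 110.3 and 112.5 TPM with the 3p.1 duplex and 101.1 and 121.6 TPM with the 5p duplex (adjusted p = 0.212). The comparisons of the 2 duplexes with control share their control libraries, and these genes were picked after their values were seen.

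Genes that respond to interferon formed the group with the largest fold changes. All 47 interferon-stimulated genes tested, of 48 listed, were lower with the 3p.1 duplex than in control, with a median log2 fold change of -1.89 beside -0.03 for all genes. The remaining gene, SHFL, is listed under its older symbol C19orf66, with 33.5 and 69.1 TPM in the controls against 17.3 and 16.5 TPM (log2 fold change -1.46). None of the 47 passed the adjusted p over all genes (0.0149% of all genes did), 46 had an unadjusted p under 0.05 (5.62% of all genes were lower at that p), and the 2 libraries of each group did not overlap for any of them (24.1% of all genes, lower). By library the median level was 51.6 and 129 TPM in the controls, 12.4 and 9.81 TPM with the 5p duplex and 10.1 and 11.9 TPM with the 3p.1 duplex. Against the 5p duplex the median difference was -0.02, and no member was called.

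IFITM1, a membrane protein that blocks viral entry, was at 92.8 and 321.2 TPM in the controls and 7.95 and 8.69 TPM with the 3p.1 duplex. Its log2 fold change was -4.22 ± 0.53 (SE, adjusted p = 0.13); IFITM proteins have near-identical copies, so reads may be divided between them. IFI6, an interferon-induced membrane protein, was at 80.6 and 220.4 TPM in the controls and 9.30 and 11.9 TPM with the 3p.1 duplex. IFI27, another of that family, had 98.9 and 288.0 TPM in the controls against 14.1 and 14.6 TPM. OAS1, which makes 2′-5′ oligoadenylates that activate RNase L, was at 62.3 and 224.1 TPM in the controls against 5.63 and 6.18 TPM. In each of these genes the controls differed from each other by more than the duplex libraries did, with control replicate 2 the higher.

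IFIT1, which binds foreign RNA 5′ ends, was at 80.7 and 327.9 TPM in the controls and 8.83 and 13.0 TPM with the 3p.1 duplex. ISG15, a ubiquitin-like modifier, was at 91.5 and 289.1 TPM against 20.1 and 17.2 TPM. The list ran down to LGALS3BP, a secreted glycoprotein, at 427.0 and 503.3 TPM in the controls against 358.4 and 330.4 TPM. Without control replicate 1, 41 of the 47 were called lower (90 genes, 0.672%, over all genes) and the median was -2.64. Without control replicate 2, 3 were called (6 genes, 0.0448%, over all genes) and the median was -1.16. The direction thus held with either control library alone, and the size and the calls depended on which one was used. No untransfected library was analysed here, so a rise with the control miRNA and a decrease with both duplexes cannot be told apart.

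**Figure D4:**
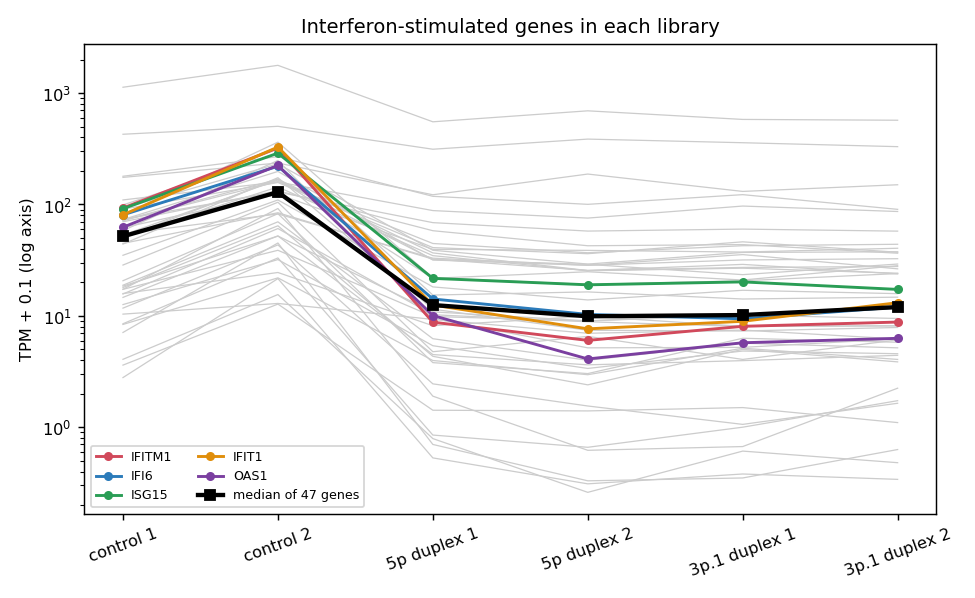
TPM + 0.1 (log axis) of the 47 interferon-stimulated genes in each library, with 5 genes in colour, the others in grey and the median in black. The median is 51.6 and 129 TPM in the controls and between 9.81 and 12.4 TPM in the 4 duplex libraries.

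The promoters of most of these genes that had one in the table hold the core of a known regulatory element. The interferon-stimulated response element is bound by transcription factors that interferon receptors activate, IRF9 among them, and its core was searched as GAAANNGAAA on both strands from 250 bases before to 50 bases after the start (RefSeq promoters, GRCh38.p14). It was found in 30 of 39 promoters of the list (76.9%), in 4.05% of the 9882 promoters of genes tested and in 3.57% of all 35116 promoters. The windows of 30 bases below, from promoters of genes named above, show the match in capitals, as the complement TTTCNNTTTC where it lies on the other strand.
IFI6, chr1:27672288-27672317, minus strand: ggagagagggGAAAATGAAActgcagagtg
IFITM1, chr11:313990-314019, plus strand: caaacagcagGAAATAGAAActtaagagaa
IFI27, chr14:94110631-94110660, plus strand: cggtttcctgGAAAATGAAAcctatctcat
IFIT1, chr10:89392497-89392526, plus strand: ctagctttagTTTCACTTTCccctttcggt
The match is a description of letters and not of binding in these cells. Among MHC class I and antigen processing genes 11 of 16 promoters held it, and among genes of G2/M and mitosis 0 of 32.

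Genes upstream and beside the interferon response stood lower too, with none called against control. Of 13 tested sensors of double-stranded RNA and their signalling partners, 12 had negative values (median log2 fold change -0.72). IFIH1, the sensor MDA5, was at 12.8 and 47.8 TPM in the controls and 3.87 and 3.26 TPM with the 3p.1 duplex, and DDX58, the sensor RIG-I, at 35.1 and 136.2 TPM against 13.8 and 15.7 TPM. Of 16 interferon receptor and JAK-STAT genes, 14 were negative, with a median of -0.12. IRF9 had 55.2 and 69.2 TPM in the controls against 24.3 and 18.4 TPM (log2 fold change -1.50, adjusted p = 0.129). All 20 MHC class I and antigen processing genes tested were negative, with a median of -0.34. HLA-B, a class I heavy chain, was at 600.1 and 669.0 TPM in the controls against 490.3 and 411.7 TPM, and the immunoproteasome subunit PSMB9 at 70.6 and 100.0 TPM against 54.6 and 49.6 TPM. Among these 3 lists the numbers lower at unadjusted p under 0.05 were 8, 5 and 12, against 5.62% of all genes. Without control replicate 1, 8, 3 and 2 members were called lower, against 0.672% of all genes, and without control replicate 2 none. The medians against the 5p duplex were -0.01, 0.10 and 0.03, and no member was called between the duplexes. NF-κB genes and inflammatory cytokines did not share the pattern: 9 of 16 were negative and the median was -0.02.

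Cell cycle genes stood slightly higher, with values that followed the control library used. Of 38 genes of G2/M and mitosis, 37 were positive and the median log2 fold change was 0.14, but none was called and 2 had an unadjusted p under 0.05 (1.24% of all genes, higher). NEK2, a centrosomal kinase, was at 91.9 and 100.1 TPM in the controls and 110.6 and 121.6 TPM with the 3p.1 duplex (adjusted p = 0.642). The median of this list was 0.003 without control replicate 1 and 0.295 without control replicate 2. Of 39 genes of G1/S and DNA replication, 29 were positive (median 0.10), among them MCM2, a subunit of the replicative helicase, at 79.8 and 84.2 TPM against 99.5 and 98.5 TPM. CCND3, cyclin D3, stood in the other direction, at 60.0 and 71.7 TPM in the controls against 44.3 and 44.4 TPM with the 3p.1 duplex and 40.5 and 41.3 TPM with the 5p duplex (adjusted p = 0.362). Among 12 replication-dependent histones 10 were negative, with a median of -0.19.

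Lists of metabolism and stress held no called gene against control, with medians from -0.12 to 0.13. Of 33 sterol and fatty acid synthesis genes 29 were negative, with a median of -0.12 that moved to -0.02 without control replicate 2. HMGCS1, an early enzyme of sterol synthesis, was at 55.3 and 62.4 TPM in the controls against 46.9 and 49.1 TPM. Medians were 0.06 for endoplasmic reticulum chaperones, 0.13 for integrated stress response genes, -0.01 for hypoxia and glycolysis, 0.01 for oxidative phosphorylation, 0.03 for mitochondrial and 0.08 for cytosolic ribosomal proteins, and -0.06 for p53 targets (0.07 without control replicate 1 and -0.16 without control replicate 2). Those of oxidative phosphorylation (0.11 and -0.10), cytosolic ribosomal proteins (0.17 and -0.04) and endoplasmic reticulum chaperones (-0.05 and 0.16) turned as well between the fits without control replicate 1 and without control replicate 2. TP53INP1, a p53 target linked to autophagy, had 23.6 and 15.5 TPM in the controls, 30.3 and 22.1 TPM with the 5p duplex and 12.3 and 9.01 TPM with the 3p.1 duplex (adjusted p = 0.59). Its 3p.1 libraries lay below all others, and its controls differed from each other. CTGF, a target of the YAP coactivator of the Hippo pathway, was at 179.3 and 292.0 TPM in the controls and 321.4 and 423.5 TPM with the 3p.1 duplex (adjusted p = 0.717).

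**Figure D5:**
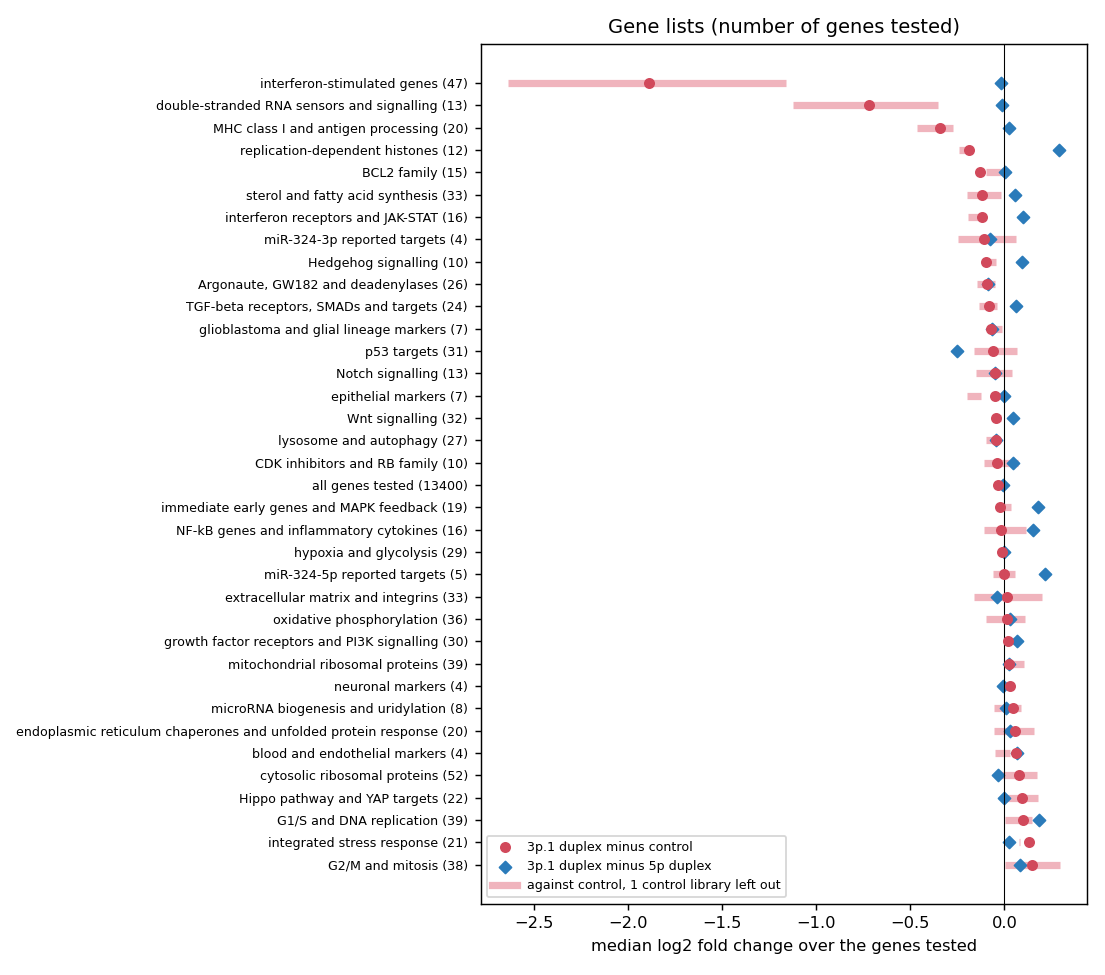
Median log2 fold change of each gene list (with its number of genes tested) for the 3p.1 duplex against control (circles) and against the 5p duplex (diamonds), with bars from the medians with 1 control library left out. Interferon-stimulated genes lie at -1.89 against control and near 0 against the 5p duplex, and most other lists lie within 0.2 of 0 in both.

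Genes named for their part in the biology of this microRNA stood close to control. CREBBP, a histone acetyltransferase, and DVL2, a Wnt transducer, both recalled as reported targets of miR-324-3p, stood at 23.5 and 25.4 TPM and 27.1 and 21.8 TPM with the 3p.1 duplex, against 23.5 and 26.6 TPM and 31.4 and 24.6 TPM in the controls. The 4 reported targets tested had a median log2 fold change of -0.11, which was 0.06 without control replicate 1 and -0.24 without control replicate 2, and none had an unadjusted p under 0.05. SMO, the signal transducer of the Hedgehog pathway and a reported target of miR-324-5p, was at 18.3 and 18.4 TPM against 19.2 and 17.6 TPM in the controls. SMO stood near control although its 3′ UTR holds 7mer-m8 matches of GGGGCAG. CUEDC2, another reported 5p target, was at 137.5 and 126.1 TPM against 137.0 and 116.7 TPM, and was called higher than with the 5p duplex (65.5 and 66.2 TPM, adjusted p = 0.0292). DICER1, which cuts microRNA hairpins, was at 22.9 and 25.8 TPM against 19.7 and 24.97 TPM in the controls. GLI1, a transcription factor of the Hedgehog pathway, was below the level tested, at 0.71 to 1.36 TPM over the 6 libraries. The uridylating enzymes TUT4 and TUT7 are listed under their older symbols, ZCCHC11 and ZCCHC6. ZCCHC11 was at 21.1 and 24.8 TPM in the controls against 23.96 and 24.5 TPM, and ZCCHC6 at 18.4 and 21.5 TPM against 18.96 and 18.4 TPM (adjusted p of 0.967 and 0.958).

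The machinery of microRNA silencing was described because CNOT6 belongs to it. Of 26 Argonaute, GW182 and deadenylase genes 19 were negative, with a median of -0.09, and 1 was lower at unadjusted p under 0.05, CNOT6 itself, against 59.0% negative and 5.62% lower at that p over all genes. TNRC6B, a GW182 scaffold, was at 4.95 and 5.09 TPM in the controls against 3.89 and 4.21 TPM, and CNOT4 at 19.2 and 20.9 TPM against 17.6 and 17.2 TPM; neither was called. Hedgehog, Wnt and Notch signalling lists had medians of -0.10, -0.05 and -0.05, with no called member. In the Wnt list BCL9L, a β-catenin coactivator with 3 matches of the 7mer-m8 class, stood at 16.04 and 13.2 TPM in the controls against 10.97 and 10.8 TPM (adjusted p = 0.624). Lists for receptors and PI3K signalling, TGF-β, MAPK feedback, the BCL2 family, CDK inhibitors, lysosome and autophagy, and the extracellular matrix had medians from -0.13 to 0.02. Without control replicate 1 and without control replicate 2 the extracellular matrix median was -0.16 and 0.20, and that of CDK inhibitors -0.11 and 0.07. Marker lists for other cell types showed no called gene against control: the 7 glial, 4 neuronal, 7 epithelial and 4 blood and endothelial markers tested had medians of -0.07, 0.03, -0.05 and 0.06. CD68, a lysosomal protein used as a macrophage marker, stood at 53.4 and 57.0 TPM in the controls against 42.3 and 32.7 TPM (adjusted p = 0.459).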

How the data were processed

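Per the labels' protocols, oligo-dT enriched, stranded libraries of A172 RNA were read as 100 bp pairs. For each library the authors deposited TPM by gene symbol. RSEM and GRCh38 come per the submitters' processing notes. The sources used here give no annotation, aligner or version. The 21 to 23 repeated symbols per library were summed and unlisted symbols taken as 0. Deposited values were not counts, so no count test was run.

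Values were analysed as log2(TPM + 1), which shrinks fold changes at low levels. A mean of 1 TPM or more over 6 libraries was required (13400 of 20979 symbols). All 6 libraries were fitted with limma 3.58.1 in R 4.3.3 (trended, moderated variances; 3 residual degrees of freedom) without a replicate term. Two-sided p-values were adjusted by the Benjamini-Hochberg method over all genes, with a threshold of 0.05, and errors are standard errors of the model. The replicate numbers are tied to no batch in the labels and were not treated as pairs. The fit was tested on simulated data. It recovered 31.3%, 92.5% and 100% of changes of 0.5, 1 and 2 log2 units, and called 6 unchanged genes. The simulated noise was independent between libraries, so these shares do not cover replicate differences that correlate between groups. The simulated spread also varied less from gene to gene than the fit estimated for the data, so the shares may be too high.

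Seed words were counted in the longest GENCODE 29 3′ UTR of 11995 tested genes, described without a test. Named genes were up to 15 called genes in each direction with at least 5 TPM, and up to 4 members per list by p. The 12 lowest with a word of the 3p arm were added, separately for the RefSeq start and for the form from base 4. CREBBP, DVL2, SMO, GLI1, TUT4, TUT7 and DICER1 were named whatever their values. Not every gene named by these rules is described, for example CARD16 of the RefSeq start. Others are said to be chosen after their values were seen. The members and the 35 lists were chosen with earlier results of these data known. Alternatives varied the pseudocount, the filter, the scaling, the variance model, the replicate term and the libraries.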

Additional observations from a re-analysis of the deposited data

How the results depend on the processing

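Against control, 2 genes were called as reported, 3 with a pseudocount of 0.1, and 2 with a minimum mean of 5 TPM, quantile normalization, TMM scaling, no variance trend or robust variances. The count was 0 with a pseudocount of 5 and 0 with no filter on low values in limma (919 had an unadjusted p under 0.05 as reported). Only the groups compared gave 18, of which 16 were copies of 5S ribosomal RNA that share 1 value. Leaving out 1 library gave 5 to 94; the lone library of that group is then assumed to vary like the other groups. Against the 5p duplex, 58 genes were called as reported, 43 to 58 with the other pseudocounts, scalings, a minimum of 5 TPM or robust variances, 5 with no filter, 5 with no variance trend, 19 with only the groups compared, and 7 to 26 with 1 library left out. The cause of these differences was not tested. Copies of 5S ribosomal RNA also make up part of some counts with 1 library left out, the highest against the 5p duplex among them. With the replicate block, a term for the replicate number, 30 genes were called against control (25 lower, among them TVP23B, EI24, RYK, TMEM64, SDF2, CNOT6, CCNK, TOMM40, PPP5C, STX3, TP53INP1, IRF9 and the interferon-stimulated genes IFI6, IFI27, IFITM1, IFITM3 and BST2, and 5 higher, among them LRIG1, STK38L and NUP93) and 278 against the 5p duplex. Replicate differences correlated across genes by 0.265 to 0.383 between the groups, which is a hint from the data and not from the design. The 8mer difference of -0.064 ranged from -0.039 to -0.089 over all alternatives, and was -0.066 without the interferon lists, an alternative chosen after seeing the data, as were the classes of GC content. TMM scaling and quantile normalization moved the median of all genes to 0.028 and 0.019.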

Other observations

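Small RNA genes that oligo-dT libraries measure poorly appeared and disappeared between groups. SNORA31, a small nucleolar RNA, was listed at 0 in all control and 5p duplex libraries and had 91.7 and 20.02 TPM in those of the 3p.1 duplex (adjusted p = 0.117 against control and 0.0325 against the 5p duplex). Against control it was called without 3p.1 duplex replicate 1 or without 3p.1 duplex replicate 2 (adjusted p of 0.00264 and 0.000659), but those fits take their spread from libraries that are all at 0, so they are no check of the difference. SNORA29 and RNU4-1 were listed only with the 5p duplex, with 12.3 and 17.1 TPM and with 9.87 and 6.93 TPM. These genes were picked after their values were seen.

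BTN3A2, a butyrophilin that takes part in the recognition of cells by gamma delta T cells, was at 22.7 and 23.0 TPM in the controls, 16.9 and 13.3 TPM with the 5p duplex and 9.67 and 9.36 TPM with the 3p.1 duplex, 41.7% of control (adjusted p = 0.117; 0.211 against the 5p duplex). SPRYD7 had 23.5 and 21.3 TPM in the controls, 14.7 and 14.3 TPM with the 5p duplex and 12.5 and 12.6 TPM with the 3p.1 duplex (adjusted p = 0.149). Both were picked after their values were seen.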
